A study of Homo sapiens with 8 samples.

Results

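The genes described here are 10 genes of the Hippo pathway and its transcriptional output: YAP1, WWTR1, TEAD1, TEAD4, LATS1, LATS2, CCN1, CCN2, AMOTL2 and ANKRD1. They were taken from a fixed list of names, chosen with earlier results of these data known. The genes were found in the count files through their Ensembl identifiers, using GENCODE 44 on GRCh38. All 10 were among the 60624 genes counted, and all 10 passed the filter on low counts that left 18661 genes for testing. They were measured in A549 cells, an established human lung adenocarcinoma line, by sequencing of polyadenylated RNA. The 4 groups were untreated cells, cells given indisulam, cells given SPHINX31 and cells given both, with 2 libraries in each group. Indisulam is a sulfonamide that brings the splicing factor RBM39 to an E3 ubiquitin ligase for degradation, and SPHINX31 inhibits SRPK1, a kinase of SR splicing factors. The study's methods give 0.5 µM indisulam, 5 µM SPHINX31 and 24 h, whereas the deposited labels give 2 µM indisulam and 18 h, so the dose and time behind these libraries are uncertain. The labels call the 2 libraries of a group technical replicates, and every SD and p-value below therefore measures the spread between libraries and not between independent treatments. All cells were of the same line, grown in RPMI with serum, and the labels name no genetic change in any group.

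The Hippo pathway is a kinase cascade that restrains growth. MST kinases activate LATS1 and LATS2, which phosphorylate the coactivators YAP (gene YAP1) and TAZ (gene WWTR1), so that they are held in the cytoplasm by 14-3-3 proteins or degraded. Unphosphorylated YAP and TAZ enter the nucleus, where they bind TEAD transcription factors and raise targets such as CCN1, CCN2, ANKRD1 and AMOTL2. Much of this control acts on phosphorylation, location and stability of the proteins, which RNA counts do not measure. In lung epithelium and in lung cancer lines YAP and TAZ are known for their response to cell density and stiffness.

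TEAD factors recognise the letters CATTCC, which read GGAATG on the other strand. The 250 bases upstream of each annotated start were taken from RefSeq promoters on GRCh38.p14 and searched for these letters on both strands. Promoters were matched for 7 of the 10 genes (10 promoters), with no entry for CCN1, TEAD1 or TEAD4. The letters were in 4 of these 10 promoters, those of ANKRD1, CCN2, YAP1 and an AMOTL2 promoter, and in 11.9% of all 35116 promoters of the same length. The AP-1 letters TGACTCA, or TGAGTCA on the other strand, were in 0 of the 10 and in 4.2% of all, and the CArG box was in 0 of the 10 and in 1.16% of all. The 3 promoters below belong to targets of the pathway and are shown because 2 of these targets rose with indisulam and the other did not pass the test. Each is printed 5′ to 3′ along the gene's strand, ending at the base before the start, with the TEAD letters in capitals. The ANKRD1 promoter is at chr10:90921088-90921337, the CCN2 promoter at chr6:131951373-131951622 and the AMOTL2 promoter at chr3:134374448-134374697, all on the minus strand.
ANKRD1: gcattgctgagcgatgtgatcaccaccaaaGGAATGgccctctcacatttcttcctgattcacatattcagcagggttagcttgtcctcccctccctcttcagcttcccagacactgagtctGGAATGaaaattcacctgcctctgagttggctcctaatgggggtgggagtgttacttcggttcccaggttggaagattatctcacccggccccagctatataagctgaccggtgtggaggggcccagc
CCN2: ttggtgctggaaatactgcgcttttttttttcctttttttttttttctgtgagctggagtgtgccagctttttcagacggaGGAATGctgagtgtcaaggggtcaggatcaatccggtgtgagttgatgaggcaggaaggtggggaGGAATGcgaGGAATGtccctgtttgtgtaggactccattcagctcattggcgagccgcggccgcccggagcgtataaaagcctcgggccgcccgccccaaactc
AMOTL2: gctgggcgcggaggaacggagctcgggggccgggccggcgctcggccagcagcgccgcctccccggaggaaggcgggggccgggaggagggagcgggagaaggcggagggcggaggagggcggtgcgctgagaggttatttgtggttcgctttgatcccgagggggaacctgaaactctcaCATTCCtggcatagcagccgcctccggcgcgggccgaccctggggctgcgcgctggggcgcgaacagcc
ANKRD1 had the letters 220 to 215 and 128 to 123 bases before its start. CCN2 had them at 169 to 164, at 104 to 99 and at 95 to 90, and AMOTL2 at 69 to 64. YAP1 had them at 162 to 157. A match of letters is a description of the sequence and does not show that a factor binds there.

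**Figure D1:**
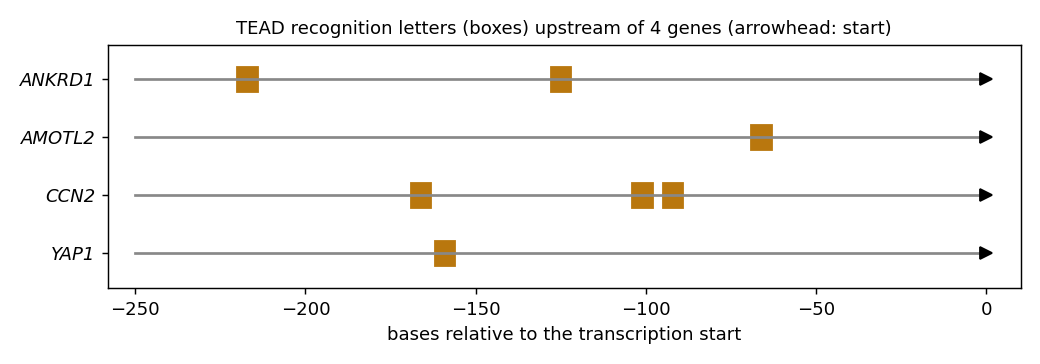
Positions of the TEAD letters (CATTCC on either strand) in the 250 bases upstream of the RefSeq starts of the 4 genes with a match, as boxes on a line per promoter, with bases relative to the start on the x axis and an arrowhead at the start. CCN2 has 3 matches, ANKRD1 has 2, and YAP1 and an AMOTL2 promoter have 1 each.

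In untreated cells the coactivators had the highest RNA levels of the 10 genes. Per kilobase of exon, WWTR1 stood at 31.2 CPM (counts scaled to a common, TMM-adjusted library size) and YAP1 at 20.7, followed by TEAD4 at 17.03 and TEAD1 at 13.8 CPM per kb. AMOTL2 came next at 7.33, then CCN2 at 4.55 and LATS1 at 4.41, whose libraries overlapped each other. CCN1 stood at 2.72, LATS2 at 2.04 and ANKRD1, the lowest, at 0.535 CPM per kb. WWTR1, YAP1, AMOTL2, CCN1, LATS2 and ANKRD1 kept their places in this order in every group. TEAD1 and TEAD4 overlapped with indisulam, and CCN2 and LATS1 overlapped with indisulam and with the combination, while LATS1 stood above CCN2 in both SPHINX31 libraries. ANKRD1 rested on 51 to 138 counts per library, the fewest of the 10 genes.

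**Figure D2:**
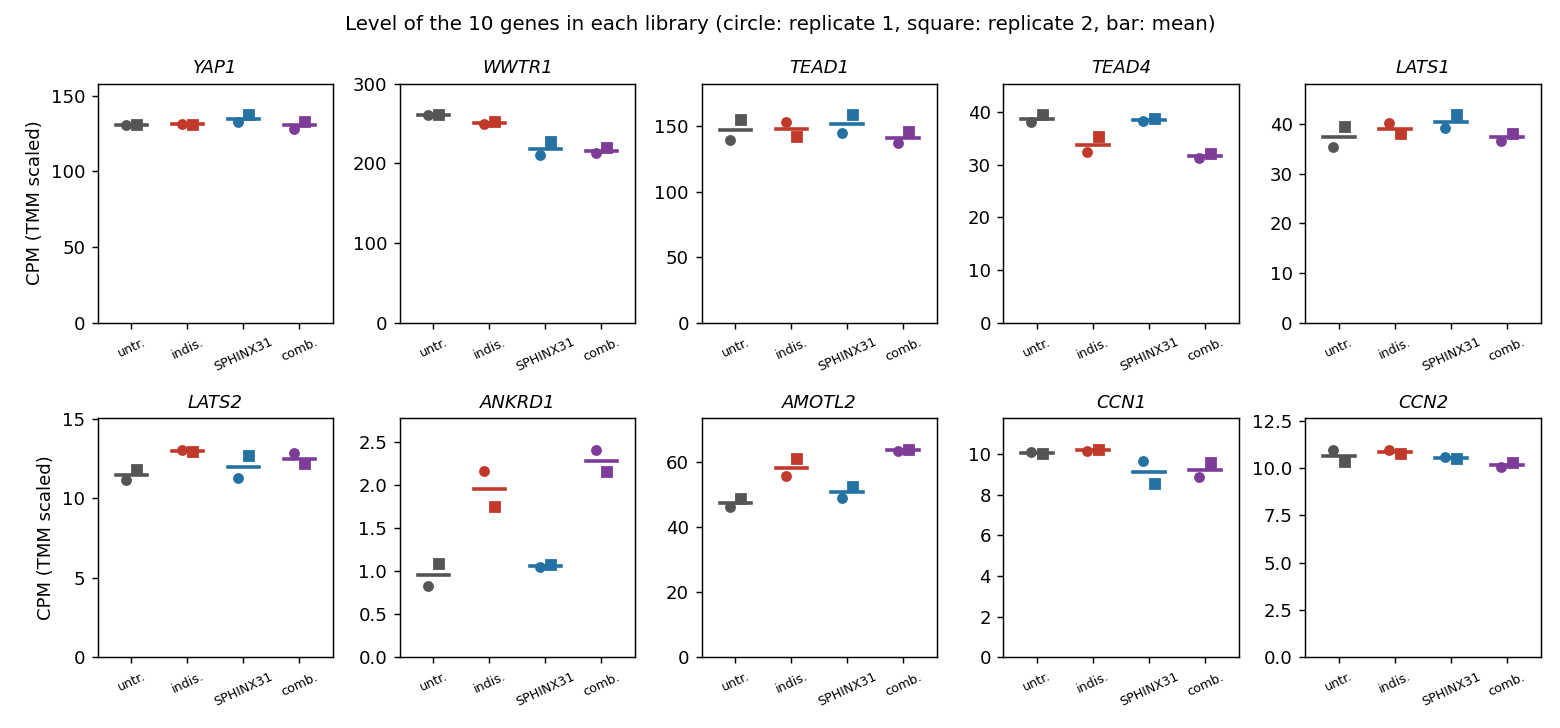
Level of each of the 10 genes in CPM in the 8 libraries, with a panel per gene, a circle and a square for the single libraries and a horizontal line for the group mean of 2 libraries. ANKRD1 and AMOTL2 are higher in both groups with indisulam, TEAD4 is lower in both, and WWTR1 is lower in both groups with SPHINX31.

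Depth was 51727369 to 63186989 counts on genes per library (median 57337791), with 82.96% to 86% of recorded reads on genes. The libraries of each group differed by more than counting noise, with a chi-square per degree of freedom of 6.345 to 10.13. The 5 epithelial markers summed to between 8409 and 9893 CPM, highest in the untreated libraries (9808 and 9893) and lowest with the combination (8409 and 8495). The 5 fibroblast markers summed to 3.525 to 5.102 CPM, the 3 endothelial markers to 1.592 to 2.51 and the 3 leukocyte markers to 6.844 to 9.805 CPM. Most of each sum was 1 gene: COL1A1 (3.23 to 4.651 CPM), PECAM1 (1.452 to 2.362 CPM) and CD14 (6.827 to 9.757 CPM). Of the other leukocyte markers, PTPRC had 0 to 3 counts per library and CD3E had 0. CDKN2A, known to be deleted in A549, had 2.648 to 3.636 CPM. The part of these values in the results below was not tested. Counts were scaled to TMM-adjusted library sizes and come from bulk RNA, so fewer cells with a transcript and less of it per cell cannot be told apart.

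With indisulam, the targets ANKRD1 and AMOTL2 rose and the transcription factor TEAD4 fell, so that 3 of the 10 genes passed the test, 2 higher and 1 lower. Over all tested genes 43.7% were called, 20.1% higher and 23.5% lower. The comparisons with untreated cells below share the same 2 control libraries. ANKRD1 (ENSG00000148677, chromosome 10, 90912096 to 90921087, 9 exons), a nuclear ankyrin repeat protein first known from cardiac muscle, had 0.8252 and 1.09 CPM in untreated cells and 2.167 and 1.747 CPM with indisulam. Both treated libraries stood above both controls. The log2 fold change was 1.04 (SE 0.188, 2.05-fold), with an adjusted p of 0.000601 in edgeR's quasi-likelihood test. AMOTL2 (ENSG00000114019, chromosome 3, 134355347 to 134375479, 10 exons), an angiomotin family protein that binds YAP and holds it at junctions, had 46.28 and 48.65 CPM in untreated cells and 55.7 and 60.78 CPM with indisulam. The groups did not overlap, and the log2 fold change was 0.29 (SE 0.0602, 1.23-fold, adjusted p = 0.00146, edgeR). TEAD4 (ENSG00000197905, chromosome 12, 2959330 to 3040676, 13 exons) had 38.04 and 39.45 CPM in untreated cells and 32.34 and 35.28 CPM with indisulam. It fell by 0.20 on the log2 scale (SE 0.0604, adjusted p = 0.0176, edgeR). The call was lost without untreated replicate 1, where the fall was 0.22 with a larger SE of 0.0811 (adjusted p = 0.0505, edgeR). It was also lost without untreated replicate 2, where TEAD4 fell by 0.17 (adjusted p = 0.126), and without indisulam replicate 1, where it fell by 0.13 (adjusted p = 0.186).

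The classical targets CCN1 and CCN2 did not pass the test with indisulam. CCN1 (ENSG00000142871, chromosome 1, 85580761 to 85584589, 5 exons), a secreted matrix protein also called CYR61, had 10.08 and 10.01 CPM in untreated cells and 10.13 and 10.22 CPM with indisulam. Its log2 difference was 0.02, with a 95% interval from −0.17 to 0.20. CCN2 (ENSG00000118523, chromosome 6, 131948176 to 131951372, 5 exons), the connective tissue growth factor, had 10.97 and 10.31 CPM in untreated cells and 10.95 and 10.73 CPM with indisulam. These libraries overlapped, and the log2 difference was 0.03 with an interval from −0.14 to 0.19. Both intervals lie below the log2 fold change fitted for AMOTL2, 0.29. That value has an error of its own, which this comparison leaves out, and the differences between genes were not tested.

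The coactivators and TEAD1 did not pass the test with indisulam either. YAP1 (ENSG00000137693, chromosome 11, 102110447 to 102233424, 9 exons) had 130.4 CPM in both untreated libraries and 131.6 and 130.5 CPM with indisulam, a log2 difference of 0.01 with an interval from −0.10 to 0.11. WWTR1 (ENSG00000018408, chromosome 3, 149517235 to 149736714, 7 exons) had 260.9 and 260.2 CPM in untreated cells and 249.8 and 251.3 CPM with indisulam. Its log2 difference was −0.06, with an interval from −0.16 to 0.05. TEAD1 (ENSG00000187079, chromosome 11, 12674421 to 12944737, 13 exons) had 139.5 and 154.8 CPM in untreated cells and 153.3 and 141.9 CPM with indisulam, so that the groups overlapped.

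Of the kinases that restrain YAP and TAZ, LATS1 (ENSG00000131023, chromosome 6, 149658153 to 149718105, 8 exons) had 35.47 and 39.48 CPM in untreated cells and 40.19 and 38.11 CPM with indisulam. LATS2 (ENSG00000150457, chromosome 13, 20973036 to 21061586, 8 exons), itself known as a target of YAP, had 11.15 and 11.76 CPM in untreated cells and 13.05 and 12.87 CPM with indisulam. The LATS2 groups did not overlap, and the log2 difference was 0.18 (SE 0.0809, interval 0.0047 to 0.35), but it missed the threshold with an adjusted p of 0.0896 (edgeR). With offsets for the GC content of each gene it passed, at a log2 fold change of 0.25 and an adjusted p of 0.0131 (edgeR). LATS2 passed in only 2 of 17 alternative fits, both with GC offsets. The median log2 difference of the 10 genes was 0.02, beside −0.0041 over all tested genes.

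With SPHINX31, WWTR1 fell and no other of the 10 genes passed the test, beside 8.61% of all tested genes called, 4.94% higher and 3.67% lower. Scaling by total counts would make 72.3% rather than 57.3% of these calls higher. WWTR1 had 260.9 and 260.2 CPM in untreated cells and 210.5 and 226.4 CPM with SPHINX31. Both treated libraries were lower, and WWTR1 fell by 0.25 on the log2 scale (SE 0.0492, adjusted p = 0.00637, edgeR). Without untreated replicate 1 the fall was 0.25 with an adjusted p of 0.0707, and without untreated replicate 2 it was 0.26 with 0.0604. At an unadjusted p under 0.05, 0 of the 10 genes were higher and 1 was lower in edgeR, beside 24.1% of all tested genes in either direction. DESeq2 called 0 of the 10 higher and 1 lower, and 1544 of the 13957 genes to which it gave an adjusted p. YAP1, the paralog of WWTR1, had 132.5 and 137.4 CPM, a log2 difference of 0.05 with an interval from −0.05 to 0.15.

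The targets did not pass the test with SPHINX31. ANKRD1 had 1.052 and 1.077 CPM, within the untreated range of 0.8252 to 1.09. AMOTL2 had 49.05 and 52.2 CPM, both above the untreated libraries, with a log2 difference of 0.09 (interval −0.04 to 0.22). CCN1 had 9.671 and 8.529 CPM, both below the untreated libraries, with a log2 difference of −0.14 (interval −0.33 to 0.04). CCN2 had 10.57 and 10.49 CPM, inside the untreated range. TEAD4 had 38.33 and 38.63 CPM, and TEAD1 had 144.6 and 158.7 CPM. LATS1 had 39.18 and 41.93 CPM and LATS2 11.28 and 12.67 CPM, with both groups overlapping the untreated libraries. The median log2 difference of the 10 genes was 0.05, beside −0.0064 over all tested genes.

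With the combination, the genes called with either single treatment were called again. ANKRD1 and AMOTL2 rose and WWTR1 and TEAD4 fell, which is 4 of the 10 genes beside 50% of all tested genes called, 23.8% higher and 26.3% lower. ANKRD1 had 2.414 and 2.149 CPM, a log2 fold change of 1.25 (SE 0.183, 2.38-fold, adjusted p = 8.0e-05, edgeR). AMOTL2 had 63.31 and 63.78 CPM, the highest level of any group, at a log2 fold change of 0.42 (SE 0.06, 1.34-fold, adjusted p = 6.4e-05, edgeR). WWTR1 had 212.9 and 218.8 CPM and fell by 0.27 on the log2 scale (adjusted p = 0.000457, edgeR), and TEAD4 had 31.3 and 32.04 CPM and fell by 0.29 (adjusted p = 0.0013). For these 4 genes no combination library overlapped an untreated one, but this held for 7 of the 10 genes, called or not. It held for 7 of the 10 with indisulam and for 4 of the 10 with SPHINX31. The share over all tested genes is not given here, so the lack of overlap is a description only.

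The other 6 genes did not pass the test with the combination. YAP1 had 128 and 132.9 CPM, on either side of the untreated 130.4 CPM. TEAD1 had 137.1 and 145.5 CPM and LATS1 36.7 and 38.15 CPM. LATS2 had 12.81 and 12.14 CPM, above both untreated libraries, with a log2 difference of 0.12 and an interval from −0.05 to 0.30. CCN1 had 8.869 and 9.539 CPM and CCN2 10.04 and 10.24 CPM, both below their untreated libraries, with log2 differences of −0.13 (interval −0.31 to 0.06) and −0.07 (interval −0.24 to 0.09). The median log2 difference of the 10 genes was −0.03, beside 0.001 over all tested genes.

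**Figure D3:**
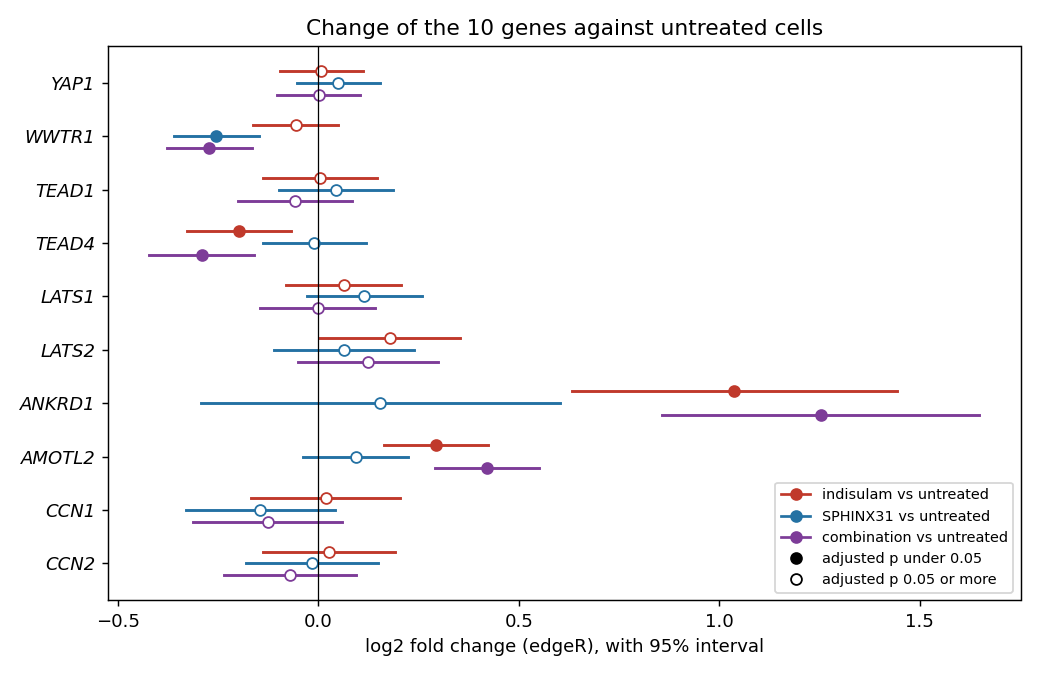
Log2 fold change of each of the 10 genes against untreated cells for indisulam, SPHINX31 and the combination, with bars for the 95% interval from edgeR and filled points for an adjusted p under 0.05. ANKRD1 has the largest values, 1.04 with indisulam and 1.25 with the combination, and WWTR1 lies below 0 with SPHINX31 and with the combination.

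Set against indisulam alone, the combination differed in WWTR1, which fell by 0.21 on the log2 scale (SE 0.0492, adjusted p = 0.0188, edgeR), beside 7.5% of all tested genes called, 3.17% higher and 4.32% lower. On total counts 65.4% rather than 42.3% of these calls were higher. This call was lost without any of the 4 libraries compared, at log2 fold changes of −0.24 to −0.19 and adjusted p-values of 0.0676 to 0.122. AMOTL2 was 0.13 higher on the log2 scale, with an interval from −0.0024 to 0.26, and did not pass. Set against SPHINX31 alone, the combination was higher in ANKRD1 (log2 fold change 1.10, adjusted p = 0.000241) and AMOTL2 (0.33, adjusted p = 0.000515) and lower in TEAD4 (−0.28, adjusted p = 0.00173), beside 49.9% of all tested genes called by edgeR, 23.4% higher and 26.5% lower. WWTR1 differed by −0.02 between them, with an interval from −0.12 to 0.09.

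The interaction of the treatments asks whether the change with both differs from the sum of the single changes on the log2 scale. It was called in 0 of the 10 genes and in 0% of all genes in edgeR. At an unadjusted p under 0.05 it was called in 0 of the 10 and in 1584 genes of all (8.49%). DESeq2 gave an adjusted p to 8531 genes and called 32 of them. It gave none to CCN1, CCN2, ANKRD1 and LATS2, and called 0 of the other 6 genes. The interaction values ran from −0.18 for LATS1 (interval −0.38 to 0.02) to 0.06 for ANKRD1 (interval −0.51 to 0.63). For ANKRD1 this interval leaves room for a departure of up to 0.63 in log2 units, so that additivity was not shown.

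The treatments were also compared directly, a comparison added after values had been seen. Cells given SPHINX31 had less ANKRD1 than cells given indisulam (log2 fold change −0.88, SE 0.187, adjusted p = 0.00152), less AMOTL2 (−0.20, adjusted p = 0.0132), less WWTR1 (−0.20, adjusted p = 0.00446) and more TEAD4 (0.19, adjusted p = 0.0198), beside 50.5% of all tested genes called by edgeR, 27.1% higher and 23.4% lower. In DESeq2 the TEAD4 call was lost, at an adjusted p of 0.0524, and it was also lost without indisulam replicate 1 (0.199), SPHINX31 replicate 1 (0.0549) or SPHINX31 replicate 2 (0.0669). The AMOTL2 call was lost without indisulam replicate 2 (adjusted p = 0.118, edgeR) or SPHINX31 replicate 1 (0.0787).

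Ratios within pairs of related genes do not depend on the scaling of the libraries. YAP1 over WWTR1, per kilobase, was 0.6617 to 0.6632 in untreated cells and 0.6874 to 0.6973 with indisulam. It was 0.8036 to 0.8334 with SPHINX31 and 0.7961 to 0.804 with the combination, so that every library with SPHINX31 stood above every library without it. TEAD1 over TEAD4 was 0.7795 to 0.8344 in untreated cells and 0.8021 to 0.8736 with SPHINX31, and it was 0.855 to 1.008 with indisulam and 0.9316 to 0.9652 with the combination. LATS1 over LATS2 was 2.103 to 2.22 in untreated cells and 2.188 to 2.297 with SPHINX31, against 1.957 to 2.035 with indisulam and 1.894 to 2.077 with the combination. CCN1 over CCN2 stayed between 0.5138 and 0.6137 in all libraries. These ratios are descriptions and were not tested.

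**Figure D4:**
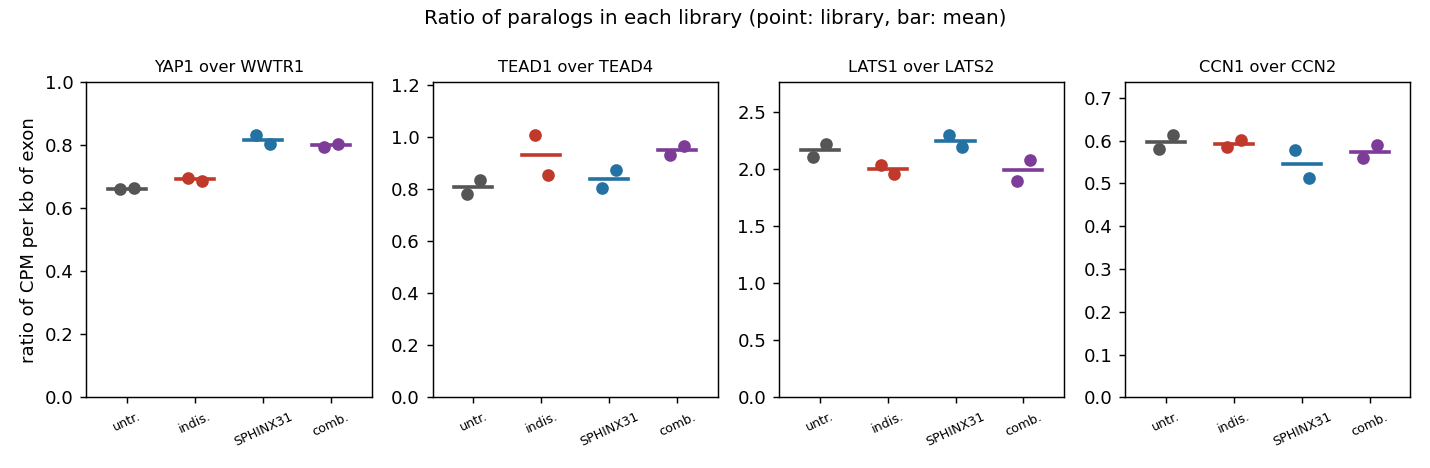
Ratio of the levels per kilobase of YAP1 to WWTR1, TEAD1 to TEAD4, LATS1 to LATS2 and CCN1 to CCN2 in the 8 libraries, with a panel per pair, a point per library and a horizontal line for the group mean. YAP1 over WWTR1 is above 0.79 in the 4 libraries with SPHINX31 and below 0.7 in the other 4.

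Annotated neighbours share exon bases with some of these genes. WWTR1-AS1, on the other strand, covers 9.05% of the WWTR1 exon bases and had 49 to 98 counts per library. YAP1 is covered on its other strand by ENSG00000254422 (9.95%, 0 to 4 counts) and ENSG00000277459 (0.17%, 15 to 32 counts). LATS1 is covered on its other strand by ENSG00000278899 (3.03%, 3 to 10 counts). LINC01013 covers 11.89% of CCN2 and had 0 counts, and the pseudogene RPL39P5 covers 2.89% of AMOTL2 and had 0 to 1 counts. Whether the counting used strand is not given in the sources used here, so these reads cannot be assigned with certainty.

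For the lists of other pathway genes below, the shares of all tested genes to read the counts against are 43.7% called with indisulam (20.1% higher, 23.5% lower), 8.61% with SPHINX31 (4.94% higher, 3.67% lower) and 50% with the combination (23.8% higher, 26.3% lower). The lists were chosen with earlier results of these data known, so a count set beside a share is a description and not a test. Of 12 Hippo kinases and cofactors, 3 rose and 1 fell with indisulam, which is 4 of 12 beside 43.7%, and 4 rose and 2 fell with the combination, which is 6 of 12 beside 50%. STK3, which encodes the kinase MST2, rose by a log2 fold change of 0.43 with indisulam (adjusted p = 4.6e-05, edgeR) and 0.47 with the combination. TAOK2, a kinase that activates MST kinases, rose by 0.31 and 0.33, and MAP4K2, which can act on LATS in parallel to them, changed by −0.38 and −0.59. With SPHINX31, TAOK3 was called, at a log2 fold change of 0.27. The median log2 difference of the 12 was 0.05 with indisulam and 0.04 with SPHINX31.

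Of 12 upstream membrane and junction regulators, 2 rose and 2 fell with indisulam, beside 43.7% of all tested genes called, and 2 rose and 3 fell with the combination, beside 50%. Neither count is above the share of all genes. FRMD6, a FERM protein, and DLG5, a scaffold, rose by log2 fold changes of 0.26 and 0.20 with indisulam, and the KIBRA family genes WWC1 and WWC3 changed by −0.18 each. With the combination, FRMD6 and DLG5 rose by 0.34 and 0.25, WWC3 changed by −0.20, and the giant cadherin FAT1 changed by −0.29 (adjusted p = 0.0134, edgeR). Of 11 inhibitors of the Hippo kinases, 3 rose and 2 fell with indisulam, beside 43.7% of all tested genes, and 4 rose and 2 fell with the combination, beside 50%. Both counts are near the share of all genes. STRN4, a subunit of the STRIPAK phosphatase complex that removes phosphate from MST kinases, changed by −0.46 and −0.39. SIKE1, also of STRIPAK, changed by −0.23 and −0.24, while CTTNBP2NL of the same complex rose by 0.25 with indisulam. AJUBA, a LIM protein that binds LATS, rose with SPHINX31 by 0.32 (adjusted p = 0.00873, edgeR).

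Of 11 genes for retention and turnover of YAP and TAZ, 3 rose and 2 fell with indisulam, near the 43.7% of all tested genes, and 2 fell with SPHINX31, beside 3.67% of all tested genes called lower. BTRC, an F-box protein that marks phosphorylated YAP and TAZ for degradation, had 27.6 ± 0.279 CPM in untreated cells and 16.7 ± 0.603 CPM with indisulam (SD, n = 2 libraries). Its log2 fold change was −0.72 with indisulam (SE 0.0627, adjusted p = 1.2e-06, edgeR) and −0.86 with the combination. FBXW11, another F-box gene of this list with a higher level, did not fall. It had 81.9 CPM in untreated cells, 85.96 with indisulam and 89.23 with the combination. The 14-3-3 genes, whose proteins hold phosphorylated YAP in the cytoplasm, did not move together: YWHAB rose by 0.24 and SFN changed by −0.33 with indisulam, and YWHAH changed by −0.24 and YWHAQ by −0.17 with SPHINX31. Against indisulam alone, 1 of 11 was higher and 3 lower with the combination, beside 7.5% of all tested genes called (3.17% higher, 4.32% lower). YWHAH changed by −0.42 on the log2 scale and YWHAQ by −0.35. YWHAH had 137.7 CPM in untreated cells, 157.3 with indisulam, 116.5 with SPHINX31 and 117.7 with the combination. Of 6 other TEAD and VGLL genes, 4 were tested. VGLL4, which competes with YAP for TEAD, rose by 0.35 with indisulam and 0.21 with the combination, and TEAD2 changed by −0.43 and −0.60. Of the 4 other CCN family genes, 2 were tested and CCN3 rose, by 0.45 with indisulam and 0.48 with the combination. CCN4, CCN6, CNN1, VGLL1 and VGLL2 had 0 to 3 counts per library and were not tested.

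A list of 17 other known YAP targets was split in direction. With indisulam 4 rose and 6 fell, beside 20.1% of all tested genes higher and 23.5% lower, with a median log2 difference of −0.06 beside −0.0041 over all genes. AXL, a receptor tyrosine kinase, had 43.4 ± 0.705 CPM in untreated cells and 25 ± 0.743 CPM with indisulam (SD, n = 2 libraries). Its log2 fold change was −0.80 (SE 0.0573), with an adjusted p of 2.1e-07 in edgeR. MYOF, a membrane repair protein, changed by −0.76, and TGFB2, a TGF-beta ligand, and CCDC80, a matrix protein, rose by 0.45 and 0.38. With the combination 4 rose and 5 fell, beside 23.8% of all tested genes higher and 26.3% lower. AXL changed by −0.87, NT5E, the ectonucleotidase CD73, by −0.82, and TGFB2 and ASAP1 rose by 0.35 and 0.30. With SPHINX31 2 of the 17 rose, beside 4.94% of all tested genes. GADD45A, a stress response gene that is also a p53 target, had 24.1 ± 0.507 CPM in untreated cells and 44.3 ± 4.68 CPM with SPHINX31, which was 0.88 on the log2 scale (SE 0.0854, adjusted p = 5.8e-05, edgeR). IGFBP3 rose by 0.23. GADD45A fell with indisulam, by 0.33 on the log2 scale, and between the combination and indisulam alone it differed by 0.48.

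**Figure D5:**
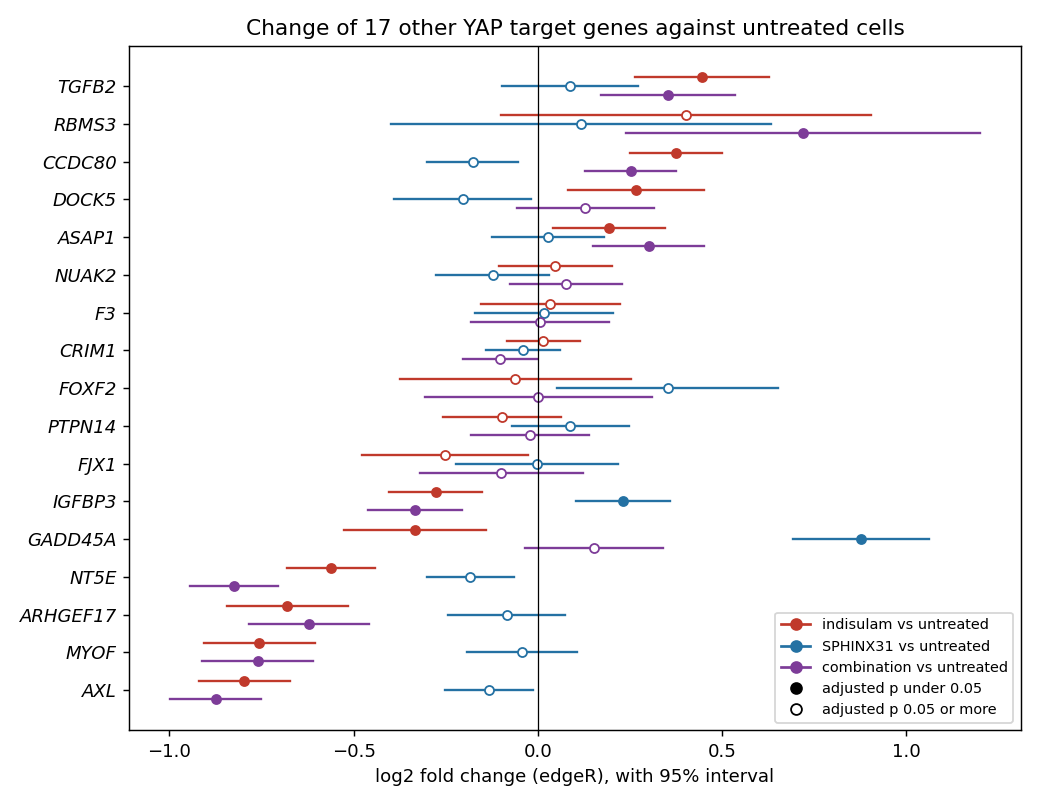
Log2 fold change against untreated cells of the 17 other YAP targets for indisulam, SPHINX31 and the combination, with 95% intervals from edgeR and filled points for an adjusted p under 0.05. With indisulam 4 genes lie above 0 and 6 below 0 past the threshold, and with SPHINX31 GADD45A stands highest at 0.88.

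Targets of SRF and its cofactor MRTF, which share a dependence on actin with YAP targets, were 12 genes, of which 11 were tested. With indisulam 4 fell, beside 23.5% of all tested genes called lower. With SPHINX31 4 fell, beside 3.67%, and with the combination 6 fell, beside 26.3%. TPM1, a tropomyosin, had 234.7 ± 6.86 CPM in untreated cells and 158.4 ± 13.2 CPM with indisulam (SD, n = 2 libraries), a log2 fold change of −0.57 (adjusted p = 4.4e-06, edgeR), and ACTN1, an actinin, changed by −0.44. ACTB and FLNA changed with SPHINX31 by −0.32 and −0.20, and TPM1 and FLNA with the combination by −0.67 and −0.52. Of 6 TGF-beta SMAD targets, 3 rose with SPHINX31, beside 4.94% of all tested genes. SMAD7, an inhibitor of TGF-beta signalling, was among them, at 0.41 on the log2 scale (SE 0.0836, adjusted p = 0.00899, edgeR). With indisulam 1 of the 6 fell, PMEPA1, at −0.47. Both lists were chosen with earlier results of these data known, so these counts describe the lists and do not test them.

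The 3 genes of the 10 whose group means differed most were ANKRD1, AMOTL2 and TEAD4, with SDs of the log2 group means of 0.61, 0.19 and 0.14. Over the 8 libraries, the genes most like ANKRD1 were ZZEF1, ZNF84 and TAF1D, with Pearson's r of 0.993, 0.989 and 0.989. Those most like AMOTL2 were FBXL2, TBC1D15 and ZNF510, with r of 0.995, 0.987 and 0.986, and those most like TEAD4 were SFR1, SAP30 and NDST1, with r of 0.989, 0.987 and 0.985. As many as 968 of the 9980 genes searched for ANKRD1 had an r of at least 0.9, 762 for AMOTL2 and 1311 for TEAD4. All these values come from the same 8 libraries in 4 groups and are given as a description.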

How the data were processed

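Polyadenylated RNA of A549 cells was sequenced by the authors as stranded paired-end libraries. The authors deposited raw counts per Ensembl gene, with no normalization, for each of the 8 libraries. The processing notes of the submitters name HISAT2 2.2.1 and HTSeq with GRCh38. The annotation release and the strand setting are not given in the sources used here. Reads without a feature, ambiguous reads and reads without a unique alignment were left out of library sizes, and 82.96% to 86% of recorded reads were on genes. Ambiguous reads, which fell on more than 1 gene, are in no gene's count.

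Libraries were grouped by their labels. Genes were filtered with edgeR's filterByExpr (18661 of 60624 kept) and scaled with TMM (factors 0.9785 to 1.024). They were compared with edgeR 4.0.16 in R 4.3.3 (quasi-likelihood test, all 8 libraries, 4 residual degrees of freedom). To these the test adds prior degrees of freedom that are shared over genes. What edgeR names the biological coefficient of variation was 0.0491, and here it measures the spread between technical replicates. P-values were adjusted by Benjamini-Hochberg over all tested genes with a threshold of 0.05. SEs were derived from the log2 fold change and the F statistic of the same fit. The 95% intervals used these SEs and the fit's total degrees of freedom. CPM values use the TMM-scaled library sizes, and CPM per kb divides by the union of exons in GENCODE 44, which held 99.65% of tested genes. The procedure was tested on simulated data. Depth was 51727369 to 63186989 counts per library, and counting error is largest for ANKRD1.

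The members and lists of genes were chosen with earlier results of these data known. In every list and comparison, at most 2 higher and 2 lower genes could be named, those that changed most among called genes whose mean log2 CPM was 3 or more and whose differences between same-numbered libraries had the same sign. GADD45A with indisulam falls outside this rule and was added after its values were seen. Some genes that met the rule are not reported here. The likeness of genes was Pearson's r over the 8 libraries. The alternatives were other scalings, filters, libraries and models, DESeq2 1.42.0, and leaving out each library. They gave 17 values for each gene and comparison, except 16 for ANKRD1 between the combination and indisulam, and 15 or 16 for the interaction, which needs all 4 groups. DESeq2 gave some genes no adjusted p. Same-numbered replicates did not pair in the same way across groups. Over 6 pairs of groups the correlation of their deviations ran from −0.5736 (untreated and indisulam) to 0.4556 (untreated and SPHINX31). It was −0.4976 for indisulam and SPHINX31, and 0.0168 to 0.1754 for the pairs with the combination. Differences between libraries were thus partly shared between groups, with the opposite sign in indisulam. The cause was not tested.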

Additional observations from a re-analysis of the deposited data

How the results depend on the processing

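Under the 17 alternatives of both comparisons, the rises of ANKRD1 and AMOTL2 with indisulam and the combination, and the falls of WWTR1 and TEAD4 with the combination, kept their direction and their call. Leaving out a library leaves a group with a single library, whose spread is assumed to be like that of the others. The count of genes lower with indisulam ran from 0 to 1 over these fits, that with SPHINX31 from 0 to 1, that of the combination against indisulam from 0 to 1, and that of genes higher with SPHINX31 than with indisulam from 0 to 1. The last count was also 0 with the compared groups' libraries alone and 0 with DESeq2. The cause was not tested.

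Values near 0 changed sign. With indisulam, CCN1 was −0.0054 with GC offsets and −0.0055 with a replicate block and GC offsets. With SPHINX31, TEAD4 was 0.0245 and CCN2 0.0195 on total counts, and TEAD4 was 0.0194 with GC offsets and 0.0194 with the block and GC offsets. With the combination, LATS1 was 0.0042 with RLE, 0.0515 on total counts, 0.0016 with every counted gene, 0.0043 with the stricter filter, 0.0079 with the compared groups alone, 0.0305 with GC offsets, 0.0308 with the block and GC offsets and 0.0042 with DESeq2. Against indisulam, the combination had YAP1 at 0.0389 on total counts. Against SPHINX31 it had WWTR1 at 0.0021 on total counts, 0.0095 with GC offsets and 0.0096 with the block and GC offsets. The interaction of CCN1 was 0.0099 on total counts, 0.0015 with the stricter filter, 0.0174 with GC offsets and 0.0179 with the block and GC offsets.

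Leaving out a library, log2 values ran with indisulam from −0.0687 to 0.0819 for TEAD1, −0.0164 to 0.0725 for CCN2 and −0.0118 to 0.1428 for LATS1. With SPHINX31 they ran from −0.0293 to 0.1212 for TEAD1, −0.0357 to 0.0166 for TEAD4, −0.0585 to 0.0305 for CCN2, −0.0339 to 0.3668 for ANKRD1 and −0.0242 to 0.1431 for LATS2. With the combination they ran from −0.0262 to 0.0371 for YAP1, −0.1317 to 0.0189 for TEAD1 and −0.077 to 0.0776 for LATS1. Against indisulam YAP1 ran from −0.0336 to 0.0267. Against SPHINX31 WWTR1 ran from −0.057 to 0.0478, CCN1 from −0.0599 to 0.1215 and LATS2 from −0.0104 to 0.1569. The interaction ran from −0.0036 to 0.1012 for WWTR1, −0.0813 to 0.1001 for CCN1, −0.0276 to 0.0902 for AMOTL2 and −0.151 to 0.2497 for ANKRD1. Between SPHINX31 and indisulam TEAD1 ran from −0.0347 to 0.0993 and LATS1 from −0.0045 to 0.0931.

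A replicate block left 7851 genes called with indisulam, 1330 with SPHINX31, 9077 with the combination, 1169 for the combination against indisulam and 9074 against SPHINX31. It changed no call among the 10 genes, but the replicate numbers are shared names only. Deviations with indisulam ran opposite to those of the same number in untreated cells (correlation −0.5736) and with SPHINX31 (−0.4976). The block therefore cannot fully remove differences shared between these libraries, and the unchanged calls do not show that such differences are without effect. Over all genes, 1606 were called with SPHINX31 and 1399 for the combination against indisulam. These became 2614 and 2289 with GC offsets, and 482 and 440 at the lowest when a library was left out. The interaction was called in 0 genes, but in 32 of 8531 with DESeq2, 94 with every counted gene and 16 with GC offsets. Scaling by total counts moved the share of higher calls from 57.3% to 72.3% with SPHINX31 and from 42.3% to 65.4% for the combination against indisulam. ANKRD1, with 51 to 138 counts per library, is where depth limits precision most.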
